A study of Caenorhabditis elegans with 4 samples.

Results

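The wide regions described here are the peaks listed for PHA-4 in Caenorhabditis elegans larvae that extend over more than 1000 bp. They come from a list of peaks made for the whole series, called here the combined list. They were chosen by their measured width, and 224 of 3890 combined peaks passed (5.76% of the peaks, holding 19.6% of all bases in them). The other 3666 combined peaks, up to 1000 bp wide, are called narrower peaks. Width in the combined list is therefore a description of the members and not a finding about them.

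The study used ChIP-seq, the sequencing of DNA that is precipitated together with a protein, to map PHA-4 in hermaphrodites at L4, the last larval stage, of the strain OP37. These animals carry unc-119(ed3) on chromosome III and the transgene wgIs37, which combines an unc-119(+) rescue copy with pha-4::TY1::EGFP::3xFLAG and was introduced by bombardment. All groups shared this genotype, growth at 20 °C on E. coli HB101 and crosslinking with 2% formaldehyde. There were 2 PHA-4 ChIP samples, precipitated with anti-GFP antibodies, and 2 Input samples of total chromatin DNA, which were not analysed here. What binds is the tagged protein made from the transgene, and chromatin came from whole worms, so a region cannot be assigned to a tissue. The labels do not state whether the ChIP samples were grown separately, and differences between replicates may therefore be technical. The lists hold no read counts, and the sequencing depth behind each value is unknown.

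PHA-4 is the worm member of the FoxA family of forkhead transcription factors. It specifies the identity of the pharynx, the feeding organ, and is also active in other parts of the digestive tract and in the gonad. FoxA proteins bind DNA at short forkhead motifs, often through several sites in 1 regulatory region, and mammalian members are known for binding motifs in compacted chromatin. A wide region in a peak list may hold several such places of binding, and the peak lists of the separate ChIP samples give a second view of what lies inside it. Those lists hold peaks of nearly constant width, 316 bp in replicate 1 and 320 bp in replicate 2. A replicate peak that overlaps a combined peak by at least 1 bp is called a sub-site of it below. The combined list belongs to the same series, and the sources used here do not state the steps that made it. The replicate lists were thus not taken as independent support for the regions, regions are not replicates of a condition, and no test was made. Values of replicates 1 and 2 are given side by side instead. Intervals are exact Clopper-Pearson 95% intervals over regions or sub-sites, which are treated as independent and cover counting error only.

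Most wide regions were not far above the threshold. Their median width was 1350 bp (interquartile range 1152 to 1835 bp), against 373 bp (301 to 500 bp) for the narrower peaks. Of the 224, 138 (61.6%) were up to 1500 bp wide, 48 were over 2000 bp and 15 over 3000 bp. The 3 members just above the threshold were X 12629909 to 12630910 (1002 bp), X 11605357 to 11606361 (1005 bp) and II 6826745 to 6827750 (1006 bp), in coordinates of the WormBase WS220 build, which is used throughout. They held 2, 2 and 3 sub-sites of replicate 1 and 2, 1 and 1 of replicate 2. The 3 combined peaks just below it were II 8683590 to 8684588 (999 bp), III 11352899 to 11353896 (998 bp) and X 10677494 to 10678490 (997 bp). They held 1, 2 and 2 sub-sites of replicate 1 and 2, 1 and 2 of replicate 2. Counts on both sides of the threshold covered the same range, apart from the 3 sub-sites of the region on II. No annotation of WS220 was used here, so regions are named by position and not by gene. Whether any region, the widest included, lies in genome sequence that the transgene also carries, from pha-4 or unc-119, was thus not checked.

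Wide regions were mostly chains of a few sub-sites. They held a mean of 2.93 sub-sites in replicate 1 (SD 1.67, n = 224 regions) and 2.90 in replicate 2 (SD 1.67), with a median of 3 in each. Narrower peaks held 1.08 (SD 0.461, n = 3666) and 1.07 (SD 0.478). In replicate 1, 23 wide regions had 1 sub-site, 73 had 2, 73 had 3, 28 had 4 and 24 had 5 or more, and 3 had none. In replicate 2 the numbers were 20, 89, 64, 23 and 26, and 2 had none. Regions of 2 or 3 sub-sites thus made up 65.2% and 68.3% of the members, and 14 was the most in either list. At least 1 sub-site of both replicates was present in 221 wide regions (98.7%, interval 96.1% to 99.7%) and in 3225 narrower peaks (88.0%, 86.9% to 89.0%), where 88.6% of all combined peaks had this. At least 2 sub-sites of both were present in 180 (80.4%, 74.5% to 85.3%), against 194 narrower peaks (5.29%, 4.59% to 6.07%) and 9.61% of all combined peaks. A wider region has more room for sub-sites, so these shares were bound to be higher. With each replicate list limited to as many of its highest-ranked peaks as the combined list holds, the share with 2 or more in both was 25.4%, and the mean number of sub-sites was 1.43, against 2.91 with the full lists. That cut falls among peaks that tie at the maximum score of their list and are ordered by deposited peak number.

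**Figure D1:**
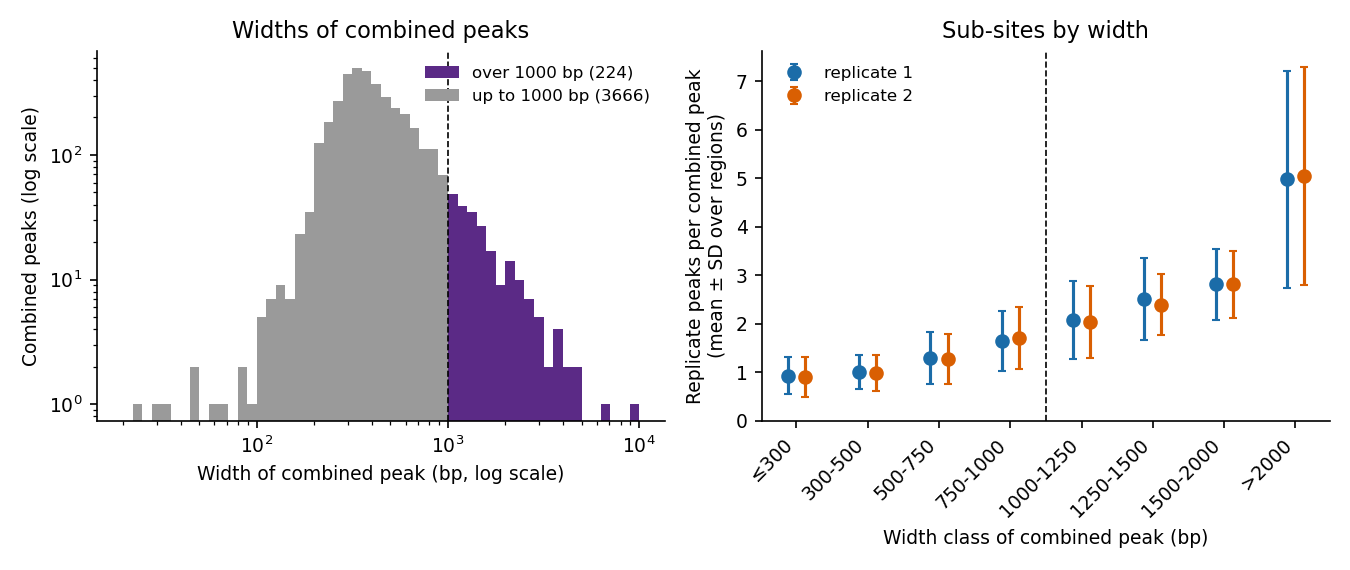
Left, number of combined peaks (log scale) by width (bp, log scale), with the 224 members in purple, the 3666 narrower peaks in grey and the 1000-bp threshold dashed. Right, replicate peaks per combined peak by width class (points, mean; bars, SD over regions): means were 2.08 and 2.04 in the class just above the threshold, 1.65 and 1.71 in the class just below it, and 4.98 and 5.04 over 2000 bp.

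The libraries often divided the same region into unequal numbers of sub-sites. The counts were equal in 89 wide regions (39.7%) and differed by 1 in 96 (42.9%), by 2 in 34 and by 3 in 5. They were equal in 73.2% of narrower peaks, most of which had 1 sub-site. Among those with 2 or more sub-sites in both lists, counts were equal in 47.2% of wide regions and 87.6% of narrower peaks, which hold at most 3. Replicate 1 had more in 71 regions and replicate 2 in 64, so neither list was regularly the longer. Over the 224 regions Spearman's rho between the 2 counts was 0.53. This describes points that share the width of the region, which had a rho of 0.65 with the count of replicate 1 and 0.66 with that of replicate 2. Among the regions that differed by 3 were V 14684568 to 14689057, with 10 sub-sites in replicate 1 and 7 in replicate 2, V 725636 to 728317, with 3 and 6, and III 12613112 to 12615688, with 5 and 2.

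**Figure D2:**
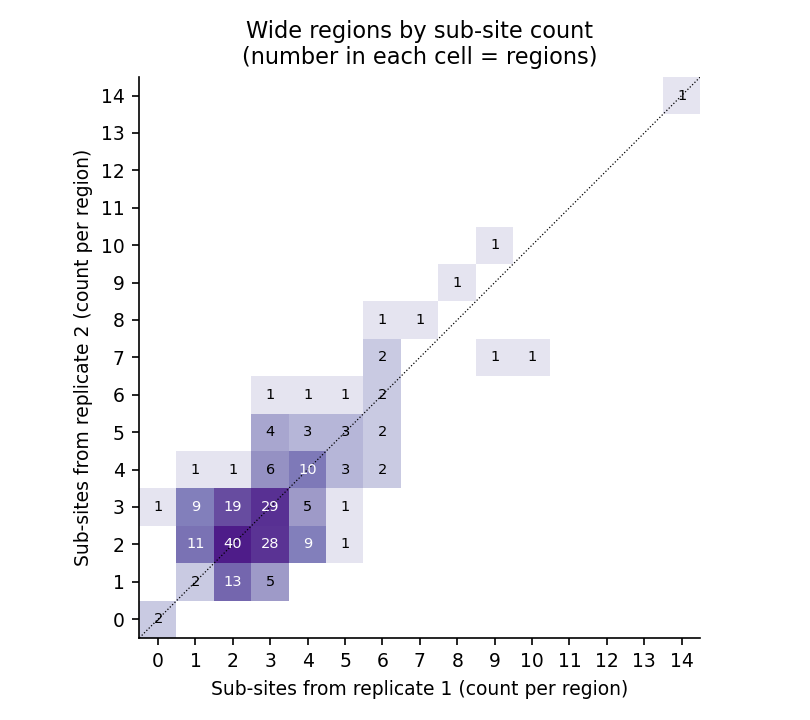
Wide regions by number of sub-sites from replicate 1 (horizontal) and replicate 2 (vertical), with the number of regions printed in each cell and equal counts on the dotted diagonal. The fullest cell, with 40 regions, has 2 sub-sites in both lists, and no region lies more than 3 from the diagonal.

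The widest region, V 20747844 to 20757330, was 9487 bp long and held 14 sub-sites in each list. Counted from its left edge, the midpoints of replicate 1 lay at 0.29, 0.49, 1.43, 2.21, 2.83, 3.06, 3.65, 3.94, 4.93, 5.44, 6.15, 7.31, 7.83 and 8.97 kb. Those of replicate 2 lay at 0.36, 1.32, 2.74, 3.87, 4.51, 4.99, 5.49, 6.11, 6.69, 7.17, 7.83, 8.03, 8.86 and 9.07 kb. Sub-sites ran along the whole region in both libraries, and 8 places were shared, in the sense that 1 midpoint of each list lay within 100 bp and was the nearest to the other. The score that the authors gave to replicate peaks has a maximum that 4569 peaks of replicate 1 (23.8%) and 4614 of replicate 2 (23.7%) share. In this region 9 of the sub-sites of replicate 1 and 10 of those of replicate 2 were at the maximum. Peaks were ranked by this score, with ties in the order of the deposited peak numbers. Ranks up to 4569 in replicate 1 and 4614 in replicate 2 thus follow the peak number alone. The lowest-ranked sub-sites here stood at 13111 of 19158 and at 15564 of 19504. High and low ranks stood side by side along the region, and the highest-ranked (best) sub-sites were number 7 of replicate 1, at 1.43 kb, and number 14 of replicate 2, at 1.32 kb.

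The next widest, V 20772519 to 20779152, was 6634 bp long. Replicate 1 had 8 sub-sites at 0.39, 1.02, 1.95, 2.73, 3.36, 4.31, 5.19 and 5.88 kb, and replicate 2 had 9 at 0.39, 1.43, 1.64, 2.28, 2.54, 3.18, 4.43, 5.32 and 5.86 kb. The sub-sites at 5.88 and 5.86 kb were the first peak of the replicate 1 list and the second of the replicate 2 list, and those at 4.31 and 4.43 kb stood at ranks 4 and 6. The lists shared 2 places within 100 bp, the leftmost and the rightmost sub-site, and the midpoints between them lay farther apart. The longest stretch that neither list covered, 715 bp, lay between the sub-sites of replicate 1 at 3.36 and 4.31 kb.

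The third, I 5375279 to 5380107, was 4829 bp long and was listed with a much less extreme q-value, 2.11e-18, than the regions of like width on V and III. Replicate 1 had 9 sub-sites at 0.18, 0.68, 1.42, 1.97, 2.17, 2.39, 2.79, 3.74 and 4.68 kb, and replicate 2 had 7 at 1.20, 1.42, 2.02, 2.75, 3.58, 3.78 and 4.64 kb. Except for the left 1 kb, where replicate 2 had none, the order of sub-sites was much the same, with 5 shared places. The best of each list, at rank 414 and rank 634, was the last on the right.

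At V 14684568 to 14689057 (4490 bp, q = 2.33e-75), replicate 1 had 10 sub-sites at 0.30, 1.18, 1.38, 1.59, 2.08, 2.63, 3.29, 3.67, 4.04 and 4.62 kb, the last with its midpoint just past the edge. Replicate 2 had 7 at 0.45, 1.18, 1.39, 2.26, 2.46, 3.43 and 4.01 kb. Places at 1.18, 1.38 to 1.39 and 4.01 to 4.04 kb were shared, and the best sub-site of both lists was the one at 1.18 kb, at ranks 520 and 92. At III 9050574 to 9055001 (4428 bp, q = 6.89e-78), replicate 1 had 9 at 0.49, 0.91, 1.29, 1.72, 2.30, 2.55, 2.78, 3.44 and 3.72 kb. Replicate 2 had 10 at 0.35, 0.90, 1.56, 1.77, 2.34, 2.79, 3.02, 3.43, 4.0 and 4.52 kb, the last again past the edge. The lists shared 5 places, but their best sub-sites lay 2544 bp apart, at 3.44 kb (rank 1385) and 0.90 kb (rank 85). These 2 regions had the same number of sub-sites at the maximum in the lists, give or take 1: 5 and 4 on V, and 6 and 5 on III.

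**Figure D3:**
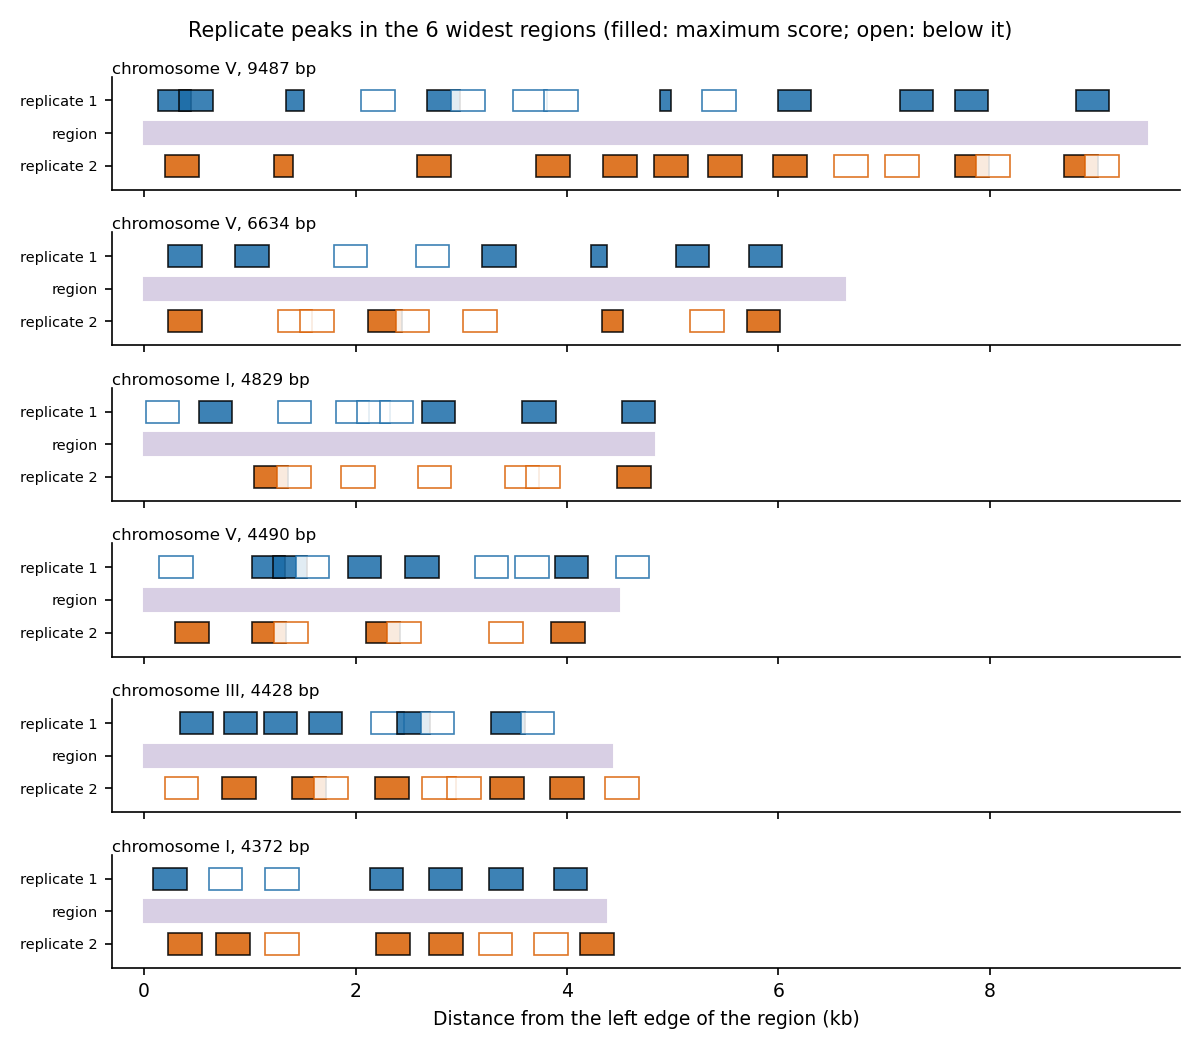
Peaks of replicate 1 (blue, above) and replicate 2 (orange, below) along the 6 widest regions (bars between them), with the distance from the left edge of each region in kb. Filled boxes are sub-sites at the maximum score and open boxes are below it, and boxes may overlap: the longest region, 9487 bp, holds 14 sub-sites in each list.

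The remaining regions among the 10 widest had 5 to 8 sub-sites, with 1 exception. I 7079452 to 7083823 (4372 bp) had 7 and 8 in replicates 1 and 2, IV 17277722 to 17281659 (3938 bp) had 6 and 7, III 8443501 to 8447247 (3747 bp) had 6 and 8, and V 8934928 to 8938664 (3737 bp) had 5 and 6. The exception was I 15063999 to 15067631, 3633 bp wide with q = 1.63e-46, which had no sub-site in either list. Its last base is also the largest position listed for chromosome I in any of the lists. Outside the 10 widest, 1 other member lacked sub-sites of both lists, V 264950 to 265971 (1022 bp, q = 0.000231). V 10680914 to 10681948 (1035 bp, q = 2.36e-06) had none of replicate 1 and 3 of replicate 2. The 5 members of lowest q outside the 10 widest each held 4 to 6 sub-sites in either list: V 1803917 to 1806358 (2442 bp, q = 1.41e-129) had 6 and 5 sub-sites, X 16929343 to 16932037 (2695 bp, q = 5.21e-129) had 6 and 4, II 14404928 to 14408122 (3195 bp, q = 9.94e-106) had 5 and 5, V 6226827 to 6230084 (3258 bp, q = 2.77e-52) had 6 and 6, and V 13787319 to 13789906 (2588 bp, q = 1.48e-41) had 5 and 4.

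Measured per kb, wide regions were less densely filled than narrower peaks. They held 1.69 sub-site midpoints per kb in replicate 1 and 1.64 in replicate 2, over 374.1 kb, where narrower peaks held 2.45 and 2.40 over 1536.3 kb. Wide divided by narrower was 0.690 in replicate 1 and 0.683 in replicate 2. A narrower peak with a single midpoint already has a high density because it is short, and the density went down with width below the threshold as well. It was 3.48 and 3.34 per kb up to 300 bp, 2.54 and 2.48 from there to 500 bp, 2.04 and 1.99 to 750 bp and 1.82 and 1.90 to 1000 bp. Above the threshold it was 1.75 and 1.62 to 1250 bp, 1.77 and 1.70 to 1500 bp, 1.61 and 1.58 to 2000 bp and 1.64 and 1.65 beyond. The classes next to the threshold on either side thus lay close together, and the number of sub-sites grew about in step with width from 750 bp upward. Against peaks of 750 to 1000 bp the ratio was 0.895. In the 1000 bp on either side, outside all combined peaks, wide regions had 0.493 and 0.520 midpoints per kb and narrower peaks had 0.280 and 0.270. Over all bases outside combined peaks, these flanks included, the lists had 0.150 and 0.154 per kb.

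Sub-sites covered 49.5% of the width of wide regions in replicate 1 and 49.2% in replicate 2, which is 185.3 and 184.1 kb. Of narrower peaks they covered 68.8% and 68.3%. The cover went down with width below the threshold, at 85.1% and 82.9% up to 300 bp, 74.1% and 73.5% to 500 bp, 58.6% and 57.7% to 750 bp and 52.8% and 55.6% to 1000 bp. In the wide class up to 1250 bp it was 50.7% and 48.9%, little below the last of these. With the lists limited as above, the cover of wide regions was 26.3%. With both lists put together the cover was 68.4% of wide regions and 83.6% of narrower peaks. No wide region was covered from edge to edge, whereas 1253 narrower peaks (34.2%) were. The longest stretch inside a wide region that neither list covered had a median of 282 bp (interquartile range 196 to 377 bp), against 19 bp (0 to 87.8 bp) in narrower peaks. It exceeded 500 bp in 27 wide regions (12.1%) and 4 narrower peaks (0.109%). The stretches over 1000 bp were the 2 regions without any sub-site.

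Neighbouring sub-sites of 1 list lay a median of 543 bp apart in replicate 1 (interquartile range 349 to 677 bp, 435 spacings) and 547 bp in replicate 2 (387 to 724 bp, 427 spacings). In narrower peaks the medians were 247 bp (531 spacings) and 239 bp (522 spacings), where long spacings have no room. The spacings in wide regions ran from 199 to 1423 bp and from 199 to 1427 bp, and they fell into a close and a broad class. Peaks of the usual width, 316 or 320 bp, overlap each other when their midpoints are under 250 bp apart. The smallest distance between midpoints in the whole list was 199 bp in replicate 1 and 162.5 bp in replicate 2. Of those in wide regions, 20.9% in replicate 1 and 20.1% in replicate 2 were under 250 bp, 8.28% and 6.09% were 250 to under 400 bp, and 48.0% and 45.2% were 400 to under 700 bp. The next 19.5% and 24.1% were 700 to under 1000 bp. The lists have the same gap in spacing outside all combined peaks: among neighbours under 1000 bp apart there, 16.5% and 18.5% were under 250 bp, 4.53% and 4.74% were 250 to under 400 bp, and 39.5% and 39.6% were 400 to under 700 bp. For wide regions under the same limit of 1000 bp the shares were 21.6% and 21.1%, 8.55% and 6.37%, and 49.6% and 47.3%. From 700 to under 1000 bp they were 20.2% and 25.2% in wide regions, against 39.5% and 37.1% outside combined peaks. Most wide regions were up to 1500 bp wide and have limited room for such spacings, which neighbours outside combined peaks do not, so the shares of the classes cannot be set against each other directly.

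**Figure D4:**
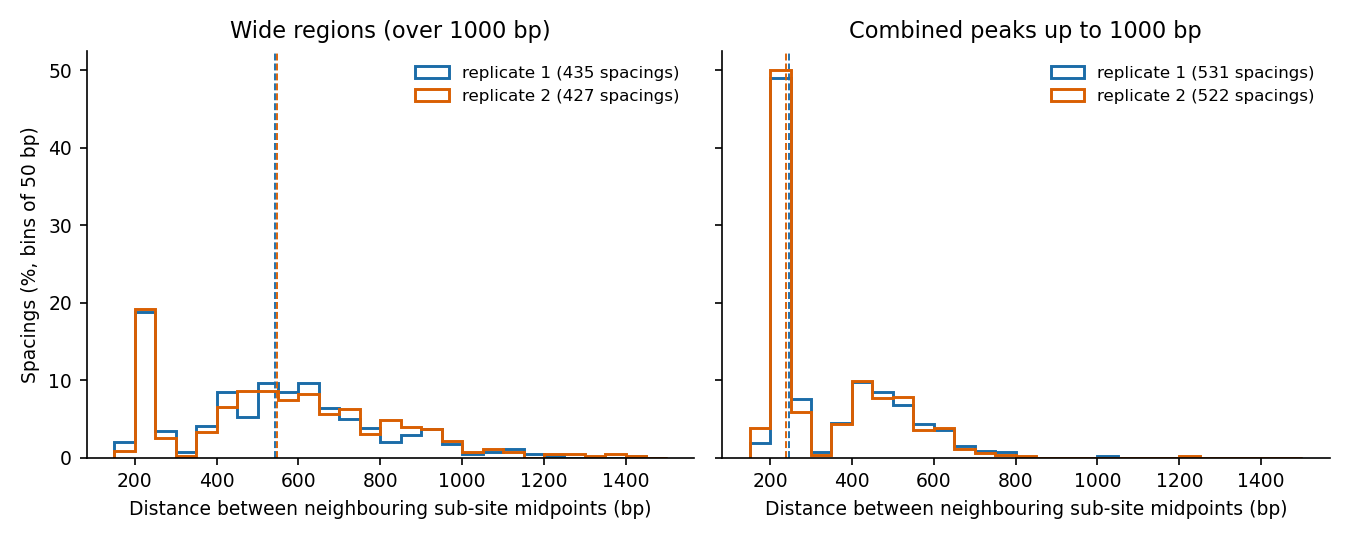
Distances between neighbouring sub-site midpoints of 1 replicate inside wide regions (left) and inside narrower peaks (right), as percent of spacings in bins of 50 bp, with replicate 1 in blue, replicate 2 in orange and the medians dashed. Medians were 543 and 547 bp in wide regions, against 247 and 239 bp in narrower peaks, and both panels have few spacings between 250 and 400 bp.

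The share of sub-sites found at the same place in both lists was lower in wide regions than in narrower peaks as a whole, and was close to that of the narrower peaks next to the threshold. Of the 656 sub-sites of replicate 1 in wide regions, 325 (49.5%, 45.6% to 53.4%) had a midpoint of replicate 2 within 100 bp, and so did 325 of the 649 of replicate 2 (50.1%, 46.2% to 54.0%) with respect to replicate 1. In narrower peaks the shares were 68.6% (67.1% to 70.0%) and 69.7% (68.2% to 71.1%). By width it was 72.3% and 74.3% up to 300 bp, 74.3% and 75.8% to 500 bp, 58.7% and 60.0% to 750 bp and 54.9% and 53.0% to 1000 bp. Above the threshold it was 50.3% and 51.4% to 1250 bp, 52.6% and 55.1% to 1500 bp, 43.9% in both lists to 2000 bp and 49.8% and 49.2% beyond. A lower share was thus not particular to wide regions. Matching was also more frequent among sub-sites of high rank, which were a smaller share in wide regions. Sub-sites at the maximum score made up 54.9% and 54.2% of those in wide regions, against 64.5% and 64.8% in narrower peaks. Among sub-sites at the maximum alone, 62.5% (57.3% to 67.5%) and 61.4% (56.1% to 66.5%) were matched in wide regions, and 79.3% and 78.9% in narrower peaks. Among those below the maximum it was 33.8% and 36.7% in wide regions, and 49.0% and 52.7% in narrower peaks. These shares set wide regions against narrower peaks of all widths, most of which were up to 500 bp wide, and were not split by width. What produces the differences was not tested. At 1.69 and 1.64 midpoints per kb in wide regions, some midpoints would lie within 100 bp of each other even if the lists were unrelated. How many was not computed, so a matched sub-site or a shared place need not be the same site.

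Within a wide region the sub-site ranked best was matched most often. In 103 wide regions in replicate 1 and 106 in replicate 2, at least 2 sub-sites tied at the maximum score. The deposited peak number alone chose the best among them. Ordered by rank inside each region, the best sub-sites were matched in 66.5% of regions in replicate 1 and 66.2% in replicate 2, the next in 43.4% and 43.6%, and the third in 39.2% and 46.0%. Their median ranks in the whole list were 1563 and 1488 for the best, 4389 and 4292 for the next and 7203 and 7374 for the third. Both lists chose the same place as best, within 100 bp, in 93 of the 221 wide regions with sub-sites of both (42.1%), and in 75.2% of the 3225 such narrower peaks. In 73 wide regions the best sub-sites of the 2 lists lay over 500 bp apart, as in the region on III above. Most narrower peaks have no room for such a distance. In regions with 2 or more sub-sites in both lists, the share with the same best place was 37.8% of 180 wide regions and 45.9% of 194 narrower peaks. The best sub-site was not at the middle of its region more than elsewhere: 28.5% and 27.9% of the best had their midpoint in the central 33.3% of the width.

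In all, 99 wide regions (44.2%) had 2 or more shared places, against 80 narrower peaks (2.18%), and 27 of the 99 had 3 or more. Among those with 2 or more sub-sites in both lists, the shares with 2 or more shared places were 55.0% of wide regions and 41.2% of narrower peaks. Wide regions held up to 14 sub-sites in a list and narrower peaks at most 3, so wide regions had more chances for shared places in both comparisons. Per sub-site, the matched share given above was lower in wide regions. Of all 224 wide regions, 86 had 1 shared place and 39 had none. In 17 wide regions (7.59%) both lists had the same number of sub-sites and every one was matched, as in 2068 narrower peaks (56.4%), most of which had 1 sub-site. Among those with 2 or more in both lists the shares were 8.33% and 35.1%. Of the 17, 6 had 3 shared places: IV 8431576 to 8433134, V 3579510 to 3580871, II 5901417 to 5902772, X 14559452 to 14560720, III 3796734 to 3797987 and IV 4469625 to 4470686, named here after their values were seen. They were 1062 to 1559 bp wide, and had q between 5.43e-17 and 4.88e-08.

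**Figure D5:**
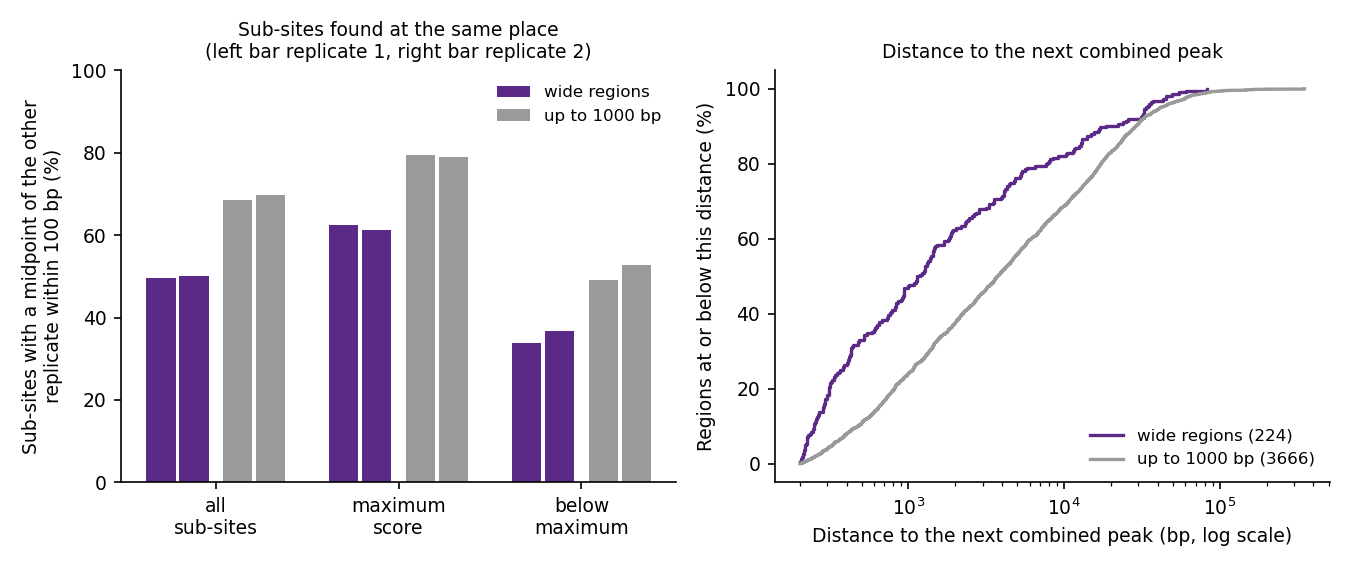
Left, percent of sub-sites with a midpoint of the other replicate within 100 bp, in wide regions (purple) and narrower peaks (grey), for all sub-sites and for those at and below the maximum score: 49.5% and 50.1% against 68.6% and 69.7% over all. Right, cumulative percent of regions by distance to the next combined peak (bp, log scale), with medians of 1163 bp for wide regions and 3735 bp for narrower peaks.

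Wide regions held many of the highest-ranked replicate peaks, and a region with more sub-sites has more chances to hold one. At least 1 sub-site at the maximum score was present in 191 wide regions in replicate 1 (85.3%) and 195 in replicate 2 (87.1%), and 172 had one in both (76.8%), against 52.0% of narrower peaks. At least 2 at the maximum were present in 103 and 106 wide regions, and in both lists in 66 (29.5%), against 10 narrower peaks (0.273%). A peak from the first 1000 of the list was present in 80 wide regions in each replicate, and in both in 50 (22.3%), against 11.0% of narrower peaks. The first 1000 peaks of each list all share the maximum score, so only the deposited peak number sets them apart from the others at the maximum. The q-values of the authors' peak caller had a median of 1.87e-10 in wide regions (interquartile range 5.95e-17 to 9.61e-07) and 0.000516 in narrower peaks. Of the 100 combined peaks of lowest q, 66 were wide, and of those past the first 1000 by q, 1.49%. Width and q come from the same list, and Spearman's rho between them was -0.50 among wide regions and -0.52 among narrower peaks. A low q was no condition for width: 18 wide regions ranked past 2000 by q, and the highest q of a member was 0.00585.

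By chromosome, X had 50 wide regions, V 49, II 40, III 35, IV 26 and I 24. As a share of the combined peaks of their chromosome, they were 7.78% on II (5.62% to 10.4%), 7.77% on I (5.04% to 11.3%) and 7.63% on X (5.72% to 9.94%). The shares were 5.14% on III (3.61% to 7.08%), 4.64% on V (3.46% to 6.09%) and 3.85% on IV (2.53% to 5.58%). The length of each chromosome was taken as the largest position listed on it in any of the lists. Per Mb, wide regions ran from 1.49 on IV and 1.59 on I to 2.34 on V, 2.54 on III, 2.62 on II and 2.82 on X. Narrower peaks had another order, from 18.9 per Mb on I, 31.0 on II, 34.1 on X and 37.2 on IV to 46.9 on III and 48.1 on V. X, in the middle of that order, thus had the most wide regions per Mb, and V, at its top, had fewer per Mb than X, II and III. Members on I had a median width of 1488 bp and the highest median q of the 6 chromosomes, 2.84e-07. Those on V had a median width of 1362 bp and a median q of 7.92e-18, and those on X had 1312 bp and 1.97e-08. Coverage by sub-sites was highest on II, at 55.6% and 53.2%, and elsewhere lay between 45.2% and 51.4%. Along the autosomes, 85 of 174 wide regions (48.9%, 41.2% to 56.5%) fell, by midpoint, within the central 33.3% of the chromosome, against 44.1% of narrower peaks, a difference within the interval. On X it was 30.0% against 38.5%.

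Wide regions also had closer neighbours than narrower peaks as a whole. The distance to the next combined peak, edge to edge, had a median of 1163 bp (interquartile range 374 to 4590 bp, exact 95% interval of the median 859 to 1451 bp), against 3735 bp (1068 to 13868 bp) for narrower peaks. No combined peaks were closer than 201 bp to each other, on either side of the threshold. In 74 wide regions (33.0%, 26.9% to 39.6%) the next combined peak was within 500 bp, as in 10.7% (9.76% to 11.8%) of narrower peaks and 12.0% of all combined peaks. By width the share was 8.45% up to 300 bp, 8.52% to 500 bp, 16.3% to 750 bp and 21.0% to 1000 bp, and in wide regions it was 23.5% to 1250 bp, 39.6% to 1500 bp, 42.1% to 2000 bp and 35.4% beyond. The median distance was 2173 bp and 2033 bp in the narrower classes to 750 and to 1000 bp, and 1271 bp in the wide class to 1250 bp. Close neighbours were thus also more frequent among the wider of the narrower peaks. Of the 74 wide regions, 8 had such a neighbour on both sides. Among the 1000 combined peaks of lowest q, the medians were 941 bp for 181 wide regions and 2123 bp for 819 narrower peaks. The shares within 500 bp were then 38.7% and 13.4%, so the distance was shorter for wide regions among the peaks of lowest q too. With combined peaks under 500 bp apart joined before the width rule was applied, which removes such gaps by construction, the median over 338 wide regions was 2320.5 bp. By chromosome the median distance was shorter for wide regions on all 6, from 412 bp against 2408 bp on V to 1759 bp against 9521 bp on I.

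The neighbours were mostly narrower peaks. Among the 82 flanks of wide regions with a combined peak within 500 bp, the neighbour was wide in 18, and the median width of the neighbours was 584 bp. Over all combined peaks 5.76% were wide, a smaller share, and narrower peaks had a median width of 373 bp. A pair of wide neighbours was counted from both sides, and the neighbours of narrower peaks were not set beside these. The members closest to another member were III 10632048 to 10633089 (1042 bp, 2 sub-sites in each list) and III 10633305 to 10634824 (1520 bp, 2 in each), 215 bp apart. They were followed by III 9702073 to 9703173 (1101 bp, 2 and 1) and III 9703396 to 9704712 (1317 bp, 4 and 2), 222 bp apart, and by V 20770615 to 20772296 (1682 bp, 2 and 3), which lies 222 bp from the 6634-bp region. With combined peaks chained across gaps under 5 kb, 53 wide regions (23.7%) stood alone, against 44.1% of narrower peaks. The other 171 fell into clusters, 25 of which held 2 or more members and 6 held 3 or more. The fullest was V 20744248 to 20779152, with 6 members that covered 24052 bp of its 34905 bp. II 10541892 to 10557584 had 4 that covered 9185 of 15693 bp, and X 6737626 to 6750555 had 4 that covered 5438 of 12930 bp.

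The 6 members in the cluster on V had 14, 8, 3, 3, 3 and 2 sub-sites in replicate 1 and 14, 9, 4, 3, 3 and 3 in replicate 2, given from the 9487-bp and 6634-bp regions down to V 20770615 to 20772296. Those in between were V 20745244 to 20747554 (2311 bp), V 20759650 to 20761358 (1709 bp) and V 20767492 to 20769720 (2229 bp). Coverage by sub-sites in these 6 ran from 35.6% to 48.6% in replicate 1 and from 32.2% to 54.4% in replicate 2. All 6 were thus below the coverage of all wide regions together in replicate 1, and 3 were in replicate 2. At the other end, the members farthest from any combined peak were all on X: 9636624 to 9637983 (1360 bp), with 83242 bp to the next, 2070913 to 2071981 (1069 bp), with 60865 bp, and 13583409 to 13584648 (1240 bp), with 54395 bp. Each of them held 2 sub-sites of replicate 1, and they held 2, 1 and 1 of replicate 2. These 3 members thus had chains as short as those near the threshold, and were themselves not far above it in width. Short chains were not a trait of isolated members in general. I 7079452 to 7083823 (4372 bp), 43368 bp from the next combined peak, held 7 and 8 sub-sites.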

How the data were processed

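PHA-4 binding was measured by ChIP-seq in 2 PHA-4 ChIP samples, and each has a deposited peak list. 1 combined list belongs to the series. Per the file headers, all positions are on WS220, the combined peaks come from PeakSeq and the replicate peaks from a source written as spp_via_IDR. The combined list gives a q-value for each peak, made by the authors. The replicate lists give a score for each peak, also made by the authors, whose meaning the sources do not state and which was used only to rank peaks within a list. Not given in the sources used here: how the combined list was made, the aligner, versions, thresholds, read depth and use of Input. Comment lines in the combined list record a lift-over to WS220, and name 1 member, II 5661181 to 5662204, as changed by it.

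From these lists, widths, overlaps of at least 1 bp, midpoint distances, covered bases and distances to the next combined peak were computed with Python 3.11.15, numpy 2.4.6, pandas 2.3.3 and scipy 1.17.1, by procedures tested on simulated data. In replicate 2, 1 repeated peak was counted once. A sub-site was called matched when a midpoint of the other replicate lay within 100 bp in the same region. Clusters were combined peaks chained across gaps under 5 kb. The 1000-bp flanks exclude combined peaks. The members and lists were chosen with earlier results of these data known. Named regions were the 10 widest, the 5 of lowest q outside them, the 3 nearest to the threshold on each side, those lacking peaks of a replicate, the 3 with the largest difference in count, the 5 closest to another member and the 3 farthest from any combined peak. Planned gene names and sequences were not used, since no reference of this build was used here.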

Additional observations from a re-analysis of the deposited data

How the results depend on the processing

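Values below are means of the 2 lists, and an alternative was read against the spread between the replicates or the interval of the value. Of 49 alternative values, 16 stayed within it and 33 moved, and the cause was not tested except where the construction gives it. For results read against the spread between replicates, leaving out a replicate stays within that spread by construction. The density ratio always uses midpoints, so the midpoint rule could not change it. These entries among the 16 do not show that a result is stable. With full lists, wide regions held 2.91 sub-sites, 80.4% had 2 or more in both lists, the density ratio was 0.686, the spacing 545 bp, the cover 49.4%, the matched share 49.8% and the distance to the next combined peak 1163 bp. Counting only midpoints inside the region gave 2.78 sub-sites, 538 bp, 48.7% cover and 51.5% matched. The replicate lists were also limited to the length of the combined list. This leaves fewer peaks and cuts among those tied at the maximum score. It gave 1.43 sub-sites, 25.4% with 2 or more in both, a ratio of 0.566, a spacing of 705.25 bp, 26.3% cover and 48.6% matched. For the 48 regions wider than 2000 bp the values were 5.01 sub-sites, 97.9%, 0.679, 564.25 bp, 48.8% and, for the distance, 1473.5 bp. Joining combined peaks within 500 bp gave 3.14 sub-sites, 86.4%, 0.667, 599.75 bp, 48.5% cover, 53.6% matched and a distance of 2320.5 bp. Without the 6 members of the cluster on V there were 2.83 sub-sites, a ratio of 0.694, 536.25 bp and 49.9% cover. Matching within 50 bp gave 31.3% and within 200 bp 71.3%. Alternatives chosen after seeing the data gave 61.9% matched for sub-sites at the maximum score and a ratio of 0.895 against combined peaks of 750 to 1000 bp, while the nearest midpoint anywhere on the chromosome (49.8%) and the 1000 combined peaks of lowest q (941 bp) stayed within the spread or interval.

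Leaving out a replicate gave 2.90 to 2.93 sub-sites, 88.4% to 90.2% with 2 or more (in the remaining list alone), ratios of 0.683 to 0.690, 543 to 547 bp and 49.2% to 49.5% cover. Matching has no value with 1 list, and the distance to the next combined peak uses none. No paired analysis was possible because the Input samples were not analysed here and no test was made. Depth is unknown, so the absence of a sub-site does not show the absence of binding.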

Other observations

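A few sub-sites of wide regions were narrower than the usual width of their list. In replicate 1 there were 6 of them, 81 to 309 bp wide, among 20 such peaks in its list, and none ranked below 276. In replicate 2 there were 3, 174 to 311 bp wide, among 14 such peaks, with ranks 14, 6 and 2. All 3 of replicate 2 lay in the 9487-bp and 6634-bp regions on V, at 1.32, 4.43 and 5.86 kb from the left edge, and replicate 1 had such a sub-site at 1.43, 4.31 and 5.88 kb of the same regions. A further 3 of replicate 1 lay at 4.93 kb in the 9487-bp region (rank 30), at III 8447003 to 8447104 (rank 16) and at X 16930808 to 16930888 (rank 276). Because these peaks are short, the cover given for those regions is lower than the same number of peaks of usual width would give.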
